A study of Danio rerio with 4 samples.

Results

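The cells described here were olfactory sensory neurons (OSNs) sorted for the OMP:RFP transgene, the ciliated class of the zebrafish olfactory epithelium. They were chosen by the label that gives the neuron subtype as OMP, which 2 of the 4 libraries of the series carry. All 4 libraries came from embryos of the Tubingen/TLF strain at 48 hpf (hours post fertilization). Olfactory epithelia were cut out and dissociated with trypsin, and cells with RFP and no Venus (OMP libraries), or with Venus and no RFP (TRPC2 libraries), were collected by fluorescence-activated sorting. In the OMP class the reporter is a membrane-bound RFP driven by the omp promoter, carried by the line Tg(omp:lyn-RFP). The other 2 libraries came from cells of the line Tg(trpc2:gap-Venus), whose trpc2 promoter labels the microvillous class. RFP therefore reports the activity of 1 promoter and not the maturity of a cell, and each library is a pool of many sorted cells. RNA was primed with oligo-dT and amplified by T7 transcription in 1 round (OMP) or 2 rounds (TRPC2). The TRPC2 libraries were also made from fewer sorted cells than the OMP libraries, so the class, the number of rounds and the number of cells cannot be told apart.

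Ciliated OSNs carry odorant receptors on their cilia. In vertebrates these receptors act through the G protein alpha subunit encoded by gnal, an adenylyl cyclase and a channel gated by cyclic AMP, and the olfactory marker protein is a small cytoplasmic protein of mature ciliated OSNs. In fish the cilia of these neurons sit in an epithelium that also holds nonsensory cells with motile cilia, basal progenitors and supporting cells, and the axons grow to the olfactory bulb in the days of development studied here.

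Levels are given in RPM, the read count of a gene scaled to a total per library. They are shares of reads and are not corrected for transcript length, so an order of genes by RPM is an order by reads and not by molecules. Reads on genes numbered 68098416 in the first OMP library and 84599818 in the second, and 10 RPM stood for 1081 and 1114 reads, a counting error of about 3%. The counting error covers reads only, since amplified copies are not independent molecules. Of 29029 genes in the files, 24425 had at least 1 read in both OMP libraries, and 7652, or 26.4%, were above 10 RPM in both. A further step up left 857 genes above 100 RPM and 76 above 1000 RPM in both. Fewer genes were read in the TRPC2 libraries, 17885 and 17991, against 25437 and 25542 in the OMP libraries. A TRPC2 level at or near 0 RPM therefore does not show that a gene was absent from those cells. In pooled cells, a lower level from fewer cells of a type cannot be told apart from less RNA per cell.

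The libraries stood apart in blood RNA before any other difference. Genes whose symbols begin with hba, hbb or hbz, the globins, summed to 11242 RPM in the first OMP library and 114259 RPM in the second, which was 1.78% and 15% of the gene reads, and to at most 0.01 RPM in either TRPC2 library. They were set apart when genes were ranked, together with 282 olfactory receptor genes, which summed to 1829 and 2139 RPM. The label was then checked with the 4 genes that mark the class. ompb had levels of 185 and 218 RPM in the OMP libraries, against 0.24 and 6.95 RPM in the TRPC2 libraries. foxj1b, a forkhead factor of motile cilia, was at 150 and 203 RPM against 17.5 and 12.4 RPM, and gnal was at 118 and 102 RPM against 6.65 and 12.04 RPM. ompa was at 55.3 and 96.4 RPM against 17.3 and 0.44 RPM, so that each of the 4 markers was higher in both OMP libraries than in either TRPC2 library. By mean level ompb ranked 421st, foxj1b 492nd, gnal 856th and ompa 1349th among the genes that are neither globins nor receptors.

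The genes with most reads served translation, folding and the cytoskeleton. The 20 highest held 9.94% and 9.50% of the gene reads of the OMP libraries, and none of them belonged to the lists of transcription factors, surface genes, signalling genes or neuronal genes used below. eef1a1l1, a translation elongation factor, was at 7561 and 10212 RPM, and pvalb5, a calcium-binding parvalbumin, at 7997 and 8388 RPM. pvalb5 was at 10130 and 6647 RPM in the TRPC2 libraries, on both sides of the OMP levels. The cytosolic chaperones hspa8 and hsp90ab1 followed, at 3780 and 5157 RPM and at 3718 and 3912 RPM. eef2b, a second elongation factor, and the ribosomal genes rplp0, rpsa, rpl3, rpl7a, rpl4 and rps2 made up much of the rest, and 52 of the 100 highest genes were ribosomal proteins. The actin genes actb2 and actb1 were at 2799 and 2884 RPM and at 2420 and 2312 RPM. slc25a5, the mitochondrial exchanger of ADP and ATP, tpt1 and the cold-inducible RNA-binding gene cirbpb completed the group of genes that were at like levels in both libraries.

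**Figure D1:**
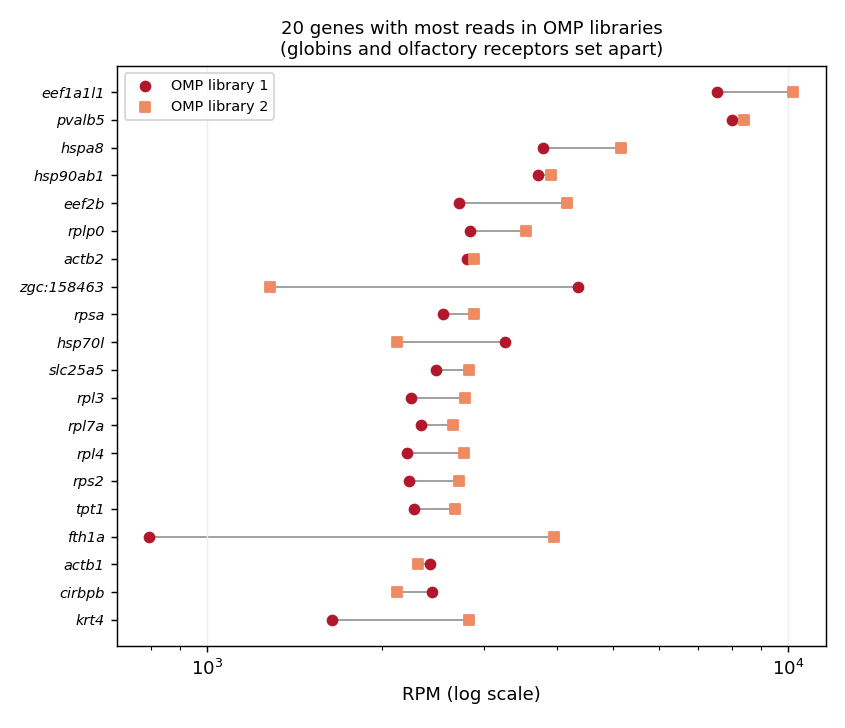
Levels of the 20 genes with most reads in the OMP libraries, globins and olfactory receptors set apart; the x axis is RPM on a log scale, and each gene has 1 point per OMP library. The points of 18 genes lie within 2-fold of each other, and those of zgc:158463 and fth1a are farther apart.

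In this group 18 of 20 genes were within 2-fold between the OMP libraries. The exceptions were fth1a, the heavy chain of the iron store ferritin, at 796 and 3962 RPM, and zgc:158463, at 4355 and 1284 RPM. RefSeq's gene table lists zgc:158463 as a ribosomal RNA gene, so its reads may not stand for a message. krt4, a keratin of the embryonic skin surface, closed the group at 1644 and 2819 RPM against 131 and 106 RPM in the TRPC2 libraries. hsp70l, a heat-inducible chaperone gene, was at 3263 and 2120 RPM in OMP against 2660 and 2194 RPM in TRPC2, so its levels in RPM overlapped between the classes.

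Comparison with the TRPC2 libraries set these levels beside the other sorted class. edgeR's quasi-likelihood test on the counts called 0% of 21026 genes at an adjusted p (Benjamini-Hochberg) under 0.05. The lowest adjusted p was 0.0721, 6417 genes had an unadjusted p under 0.05, and DESeq2 called 3909 genes. edgeR called 7495 and 8023 genes higher in OMP once the first or the second TRPC2 library was left out, and 127 and 60 once the first or the second OMP library was. With all 4 libraries and class as the only term, edgeR called no gene. Differences from TRPC2 are therefore given as levels and, for some, as the fitted log2 fold change (OMP over TRPC2) with its SE. A plainer description is whether the lower OMP library was above the higher TRPC2 library, or the higher OMP library below the lower TRPC2 library. On the RPM scale this held for 51.8% (above) and 11.4% (below) of the 7652 genes over 10 RPM in both OMP libraries. On the scale of edgeR's TMM factors, which take most genes to be alike between libraries, the shares were 27.0% above and 34.4% below. The filter used OMP levels only, so genes high in TRPC2 alone could not be counted as below. This tilts the orders toward OMP, for the listed groups as for all genes. Over all tested genes the median of the log2 fold change was 0.49 under TMM and 1.13 under library totals alone, so orders between the classes are given below on both scales, and "on both scales" means such an order by RPM and by TMM-scaled counts. All 4 markers were higher on both scales, with a fitted log2 fold change of 4.99 (SE 1.63, adjusted p 0.119) for ompb, 2.78 (SE 0.39, adjusted p 0.0721) for foxj1b, 2.76 (SE 0.47, adjusted p 0.0721) for gnal and 2.36 (SE 1.55, adjusted p 0.395) for ompa. These folds moved with the TRPC2 libraries. Without the first or the second of them the value was 3.90 or 8.98 for ompb and 6.47 or 1.39 for ompa.

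Of 870 listed transcription factor genes, 315, or 36.2%, were above 10 RPM in both OMP libraries, beside 26.4% of all genes. Of the 870, 34 were above 100 RPM in both, and 23 had no read in either. Of the 315, 168 (53.3%) were above both TRPC2 libraries by RPM and 33 (10.48%) were below, near the 51.8% and 11.4% of all genes. By TMM-scaled counts 115 (36.5%) were above and 88 (27.9%) below, beside 27.0% and 34.4% of all genes. None passed edgeR's adjusted threshold, and 71 of the 315 had an unadjusted p under 0.05. Over all tested genes it was 6417 of 21026, but these include genes under 10 RPM, so the shares are of unlike sets.

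The factor genes with most reads were immediate early and stress genes of the bZIP family, which pairs basic leucine zippers on DNA. fosab, the zebrafish c-fos gene, reached 1487 and 1186 RPM in the OMP libraries, against 966 and 153 RPM in the TRPC2 libraries. jun was at 752 and 658 RPM against 298 and 84.2 RPM, and junbb at 499 and 384 RPM against 58.9 and 18.3 RPM (log2 fold change 2.75, SE 0.64, adjusted p 0.0721). All 3 were higher in both OMP libraries than in either TRPC2 library by RPM, and jun and junbb also by TMM-scaled counts. Beside them stood nfe2l2a, a regulator of the oxidative stress response, at 370 and 402 RPM, and the early genes junba, egr1 and atf3, whose 6 levels lay between 157 and 287 RPM. atf4b (352 and 353 RPM) and atf4a (294 and 295 RPM), effectors of the integrated stress response, were nearly level between the OMP libraries. xbp1, a factor of the unfolded protein response, was at 240 and 210 RPM and lower than in both TRPC2 libraries, at 273 and 310 RPM. The whole list of 37 stress response genes summed to 11355 and 8706 RPM in the OMP libraries, against 7637 and 6132 RPM in TRPC2. Of these genes 28 were above 10 RPM in both OMP libraries. By RPM 19 of the 28 were above both TRPC2 libraries and 1 below, and by TMM-scaled counts 9 were above and 7 below. The shares of all genes were 51.8% and 11.4% by RPM, and 27.0% and 34.4% by TMM-scaled counts. The part of trypsin dissociation and sorting in the levels of the stress and early genes was not tested.

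atf5a reached 231 and 443 RPM in the OMP libraries, against 36.4 and 22.6 RPM in the TRPC2 libraries. In the mouse, Atf5 links odorant receptor expression to the maturation of OSNs. Neither OMP library overlapped with TRPC2 on either scale, with a log2 fold change of 2.74 (SE 0.50, adjusted p 0.0721), while the OMP libraries themselves differed 1.92-fold. Its paralog atf5b was at 26.01 and 29.6 RPM against 25.4 and 24.7 RPM, above by RPM and below by TMM-scaled counts. 2 further factors were chosen after their values were seen. cebpb, a C/EBP family gene, was at 164 and 158 RPM against 10.01 and 26.4 RPM. mef2b, a MADS-box gene, was at 91.0 and 87.2 RPM against 5.82 and 2.69 RPM. Both lay above TRPC2 on both scales, and mef2b had a fitted log2 fold change of 3.62 (SE 0.52, adjusted p 0.0721).

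**Figure D2:**
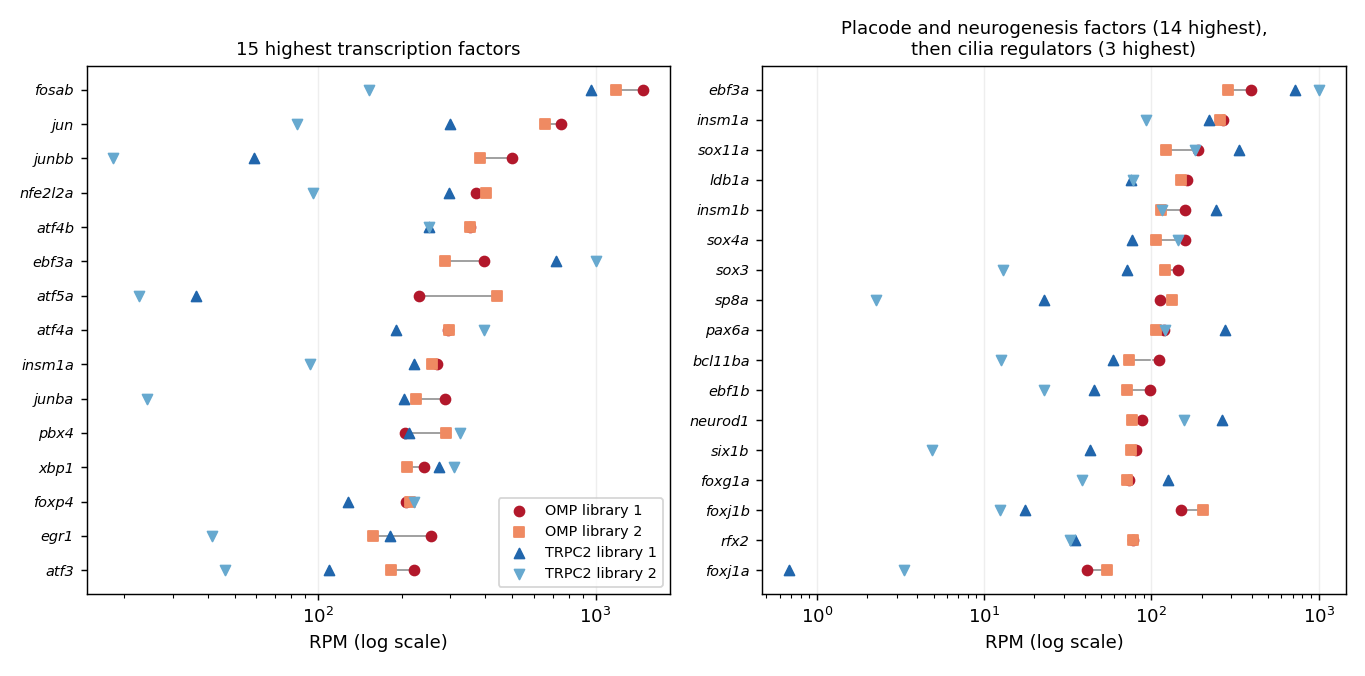
Levels in RPM (log scale) of the 15 highest transcription factor genes (left) and of the highest placode, neurogenesis and cilia factor genes (right) in each of the 4 libraries, with a grey line joining the OMP libraries. junbb, atf5a, sp8a, foxj1b and foxj1a are among the genes to the right of both TRPC2 points. ebf3a, neurod1 and xbp1 are among those to the left, and the TRPC2 points are often farther apart than the OMP points.

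Factors that pattern the olfactory placode and drive OSN differentiation formed a list of 44 genes in the files, of which 34 were above 10 RPM in both OMP libraries. By RPM 18 of these were above both TRPC2 libraries and 4 below, and by TMM-scaled counts 12 were above and 9 below. By RPM these counts are near the shares of all genes, 51.8% above and 11.4% below, and by TMM-scaled counts the shares of all genes were 27.0% and 34.4%. The highest was ebf3a, a factor of the Olf/EBF family named for olfactory neurons, at 397 and 287 RPM, below both TRPC2 libraries at 723 and 1006 RPM (log2 fold change -2.13, SE 0.42, adjusted p 0.0721). The proneural gene neurod1 was also below, at 88.1 and 76.8 RPM against 265 and 157 RPM, and so was pax6a on both scales, at 118 and 106 RPM against 276 and 122 RPM. insm1a, a zinc finger gene of newborn neurons, was at 269 and 259 RPM. The zinc finger gene sp8a was at 113 and 133 RPM against 23.0 and 2.25 RPM, above on both scales. The placode genes six1b (80.8 and 75.4 RPM), dlx3b (75.6 and 66.98 RPM) and eya1 (59.1 and 47.1 RPM) were also above both TRPC2 libraries on both scales. lhx2b, whose mouse ortholog is needed for odorant receptor expression, was at 62.3 and 39.6 RPM, and lhx2a at 47.1 and 37.9 RPM, with TRPC2 levels between 40.1 and 55.4 RPM. The early proneural genes were low, with ascl1a at 21.4 and 11.95 RPM and neurog1 at 8.52 and 4.52 RPM.

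Of 12 cilia regulators in the files, foxj1b among them, 8 were above 10 RPM in both OMP libraries. By RPM 6 of these were above both TRPC2 libraries and 1 below, and by TMM-scaled counts 5 were above and 1 below. For all genes the shares were 51.8% above and 11.4% below by RPM, and 27.0% and 34.4% by TMM-scaled counts. rfx2, a winged-helix activator of cilia genes, was at 77.5 and 77.8 RPM against 35.0 and 32.8 RPM. foxj1a, the paralog of foxj1b, was at 41.5 and 54.5 RPM against 0.68 and 3.31 RPM, with a log2 fold change of 3.78 (SE 0.95). Both were above TRPC2 on both scales. The regulator that lay below on both scales was e2f4, a cell cycle factor that also acts in cells with many cilia, at 16.1 and 17 RPM against 18 and 20.8 RPM. gmnc, a geminin family gene that starts the program of cells with many motile cilia, was at 8.59 and 6.84 RPM, under the level of 10 RPM. The genes of motile cilia are given below with the other gene groups.

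Between the factor families, homeobox genes gave 67 members of 257 above 10 RPM in both OMP libraries, bHLH genes 47 of 122, bZIP genes 37 of 68, zinc finger genes 40 of 119, SOX and other HMG-box genes 20 of 32, forkhead and RFX genes 17 of 59, and nuclear receptors 19 of 67. Of all 29029 genes 26.4% were above that level in both, and the homeobox, forkhead and RFX, and nuclear receptor counts were near this share. The highest homeobox gene was pbx4, a cofactor of Hox proteins, at 206 and 288 RPM. zfhx4, a large zinc finger homeobox gene, was at 207 and 78.4 RPM, one of the factor genes that fell outside 2-fold. foxp4 led the forkhead genes at 208 and 214 RPM, sox11a the SOX genes at 191.2 and 123.2 RPM, and nr4a1, an early response gene, the nuclear receptors at 194 and 124 RPM.

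Surface genes of the families listed numbered 520, of which 14 were above 100 RPM in both OMP libraries. Above 10 RPM in both were 174, or 33.5%, beside 26.4% of all genes. By RPM 108 (62.1%) were above both TRPC2 libraries and 13 (7.47%) below. By TMM-scaled counts 70 (40.2%) were above and 35 (20.1%) below. The shares of all 7652 genes beside these are 51.8% and 11.4% by RPM and 27.0% and 34.4% by TMM-scaled counts. tspan2a, a tetraspanin that organises membrane proteins, had most reads, at 775 and 836 RPM. Its TRPC2 levels lay on both sides by RPM, at 1187 and 559 RPM, and by TMM-scaled counts tspan2a was below. The adhesion molecules with most reads were clstn1 (398 and 285 RPM), a calsyntenin of axonal transport and synapses, ncam1a (348 and 323 RPM), a neural cell adhesion molecule, flrt1b (326 and 312 RPM) and islr2 (301 and 246 RPM). None of these 4 was above both TRPC2 libraries on both scales, and clstn1, ncam1a and islr2 were below by TMM-scaled counts. Those that were above on both scales included cd81a, a tetraspanin, at 281 and 327 RPM against 114 and 125 RPM, tspan35 at 150 and 206 RPM against 64.03 and 16 RPM, and lrrn1, a leucine-rich repeat protein, at 134 and 132 RPM against 61.5 and 18.6 RPM. chl1b, a member of the L1 family of axon adhesion molecules picked out for its difference, was at 85.7 and 95.9 RPM against 0.02 and 9.23 RPM.

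Cadherins gave both an epithelial and a neural member. cdh1, E-cadherin, was at 176 and 181 RPM, and cdh2, N-cadherin, at 176 and 127 RPM. cdh1 was above both TRPC2 libraries by RPM (119 and 73.0 RPM) but not by TMM-scaled counts, and cdh2 overlapped (92.5 and 187 RPM). At the same time bsg, an immunoglobulin protein also called basigin, was at 219 and 237 RPM, and sdc4, a proteoglycan that carries heparan sulphate, at 202 and 176 RPM.

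The receptors that read axon guidance cues gave 23 of 43 genes above 10 RPM in both OMP libraries. By RPM 12 of these were above both TRPC2 libraries and 6 below, and by TMM-scaled counts 7 were above and 8 below. Of all genes, 51.8% were above and 11.4% below by RPM, and 27.0% and 34.4% by TMM-scaled counts. The counts above, and those below by TMM-scaled counts, were near these shares. The semaphorin co-receptor nrp1a was at 102 and 87.0 RPM, below both TRPC2 libraries at 167 and 146 RPM. robo2, the Slit receptor by which zebrafish olfactory axons are guided, was at 89.8 and 60.0 RPM, with TRPC2 at 98.7 and 67.5 RPM. neo1a, a receptor of netrins and repulsive guidance molecules, was at 73.5 and 51.5 RPM. The chemokine receptor cxcr4b, needed for assembly of the zebrafish olfactory placode, was at 51.2 and 48.4 RPM against 40.6 and 0.01 RPM. ackr3b, a scavenger of the same chemokine, was at 66.2 and 79.9 RPM against 13.0 and 7.19 RPM, above on both scales. Among 56 ligands of such receptors 17 were above 10 RPM in both OMP libraries. 15 of the 17 were above both TRPC2 libraries by RPM and 11 by TMM-scaled counts, beside 51.8% and 27.0% of all genes. On either scale 0 were below, beside 11.4% and 34.4% of all genes. The ephrin gene efnb2a was at 94.3 and 106 RPM against 29.4 and 31.8 RPM, and cxcl12a, the chemokine itself, was at 49.1 and 60.5 RPM against 1.2 and 10.3 RPM.

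**Figure D3:**
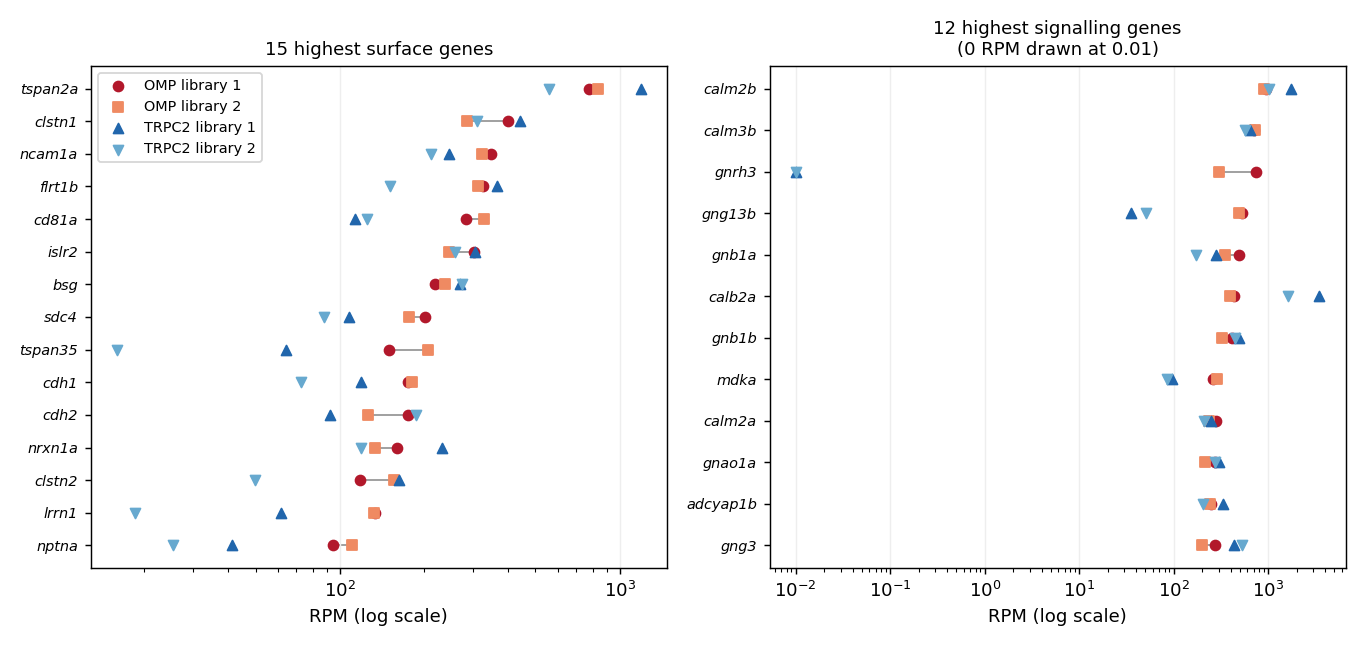
Levels in RPM (log scale) of the 15 highest surface genes (left) and the 12 highest signalling genes (right) in each of the 4 libraries, with a grey line joining the OMP libraries and 0 RPM drawn at 0.01. cd81a, tspan35, lrrn1, nptna, ncam1a, sdc4, cdh1, gng13b, mdka, gnrh3, calm3b and gnb1a lie above both TRPC2 libraries. bsg, calb2a, calm2b, gnb1b and gng3 lie below them. gnrh3 has the longest line between OMP libraries among the genes shown.

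Signalling genes numbered 491, of which 25 were above 100 RPM in both OMP libraries. Above 10 RPM in both were 131, or 26.7%, near the 26.4% of all genes. By RPM 68 (51.9%) were above both TRPC2 libraries and 19 (14.5%) below, and by TMM-scaled counts 48 (36.6%) were above and 44 (33.6%) below. Over all 7652 genes the shares were 51.8% and 11.4% by RPM and 27.0% and 34.4% by TMM-scaled counts, so by RPM the share above was that of all genes. The calmodulin genes calm2b (959 and 901 RPM) and calm3b (700 and 725 RPM) had most reads. calb2a, the calcium buffer calretinin, was at 432 and 398 RPM, below the TRPC2 libraries at 3476 and 1635 RPM (log2 fold change -3.39, SE 0.54, adjusted p 0.0721). The growth factor midkine gave mdka at 258 and 284 RPM against 94.9 and 85.2 RPM. adcyap1b, a gene of the neuropeptide PACAP, was at 249 and 242 RPM. By RPM it overlapped with TRPC2, at 330 and 203 RPM, and by TMM-scaled counts it was below. bdnf, a neurotrophin, was at 111 and 72.8 RPM against 174 and 73.4 RPM.

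Of a list of transduction genes with 20 members in the files, 12 were above 10 RPM in both OMP libraries. All 12 were within 2-fold between these libraries, beside 95.3% of all genes with a mean of at least 10 RPM. By RPM 9 were above both TRPC2 libraries and 1 below, and by TMM-scaled counts 8 were above and 3 below. The shares of all 7652 genes were 51.8% above and 11.4% below by RPM, and 27.0% and 34.4% by TMM-scaled counts. gng13b, the G protein gamma subunit of chemosensory cells, was at 528 and 491 RPM against 35.4 and 51.5 RPM (log2 fold change 2.76, SE 0.39, adjusted p 0.0721). Of the beta subunit genes, gnb1a was at 496 and 345 RPM against 278 and 172 RPM, above by RPM only, and gnb1b was at 412 and 325 RPM against 486 and 443 RPM, below on both scales. The channel subunit cnga4 was at 104 and 170 RPM against 30.2 and 28.6 RPM, and arrb2b, a beta-arrestin that shuts receptors off, was at 107 and 130 RPM against 44.5 and 27.3 RPM. ric8b, which helps to fold the gnal protein, was at 19.2 and 20.6 RPM against 4.1 and 2.6 RPM, and the cyclase adcy3b was at 15.04 and 11.4 RPM against 0.01 and 0.44 RPM. The chloride channel ano2 overlapped with TRPC2 by RPM, at 35.3 and 35.1 RPM against 38.5 and 26.1 RPM. cngb1a, another channel subunit, was at 0.30 and 0.27 RPM, well under the level of 10 RPM. A channel subunit gene outside this list, CNGA2_(1_of_2), had 144 RPM (first OMP library) and 202 RPM (second), in each case more than cnga4.

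gnrh3, the gene of a gonadotropin-releasing hormone made by the neurons of the terminal nerve, reached 750 and 300 RPM in the OMP libraries, with 0 RPM in both TRPC2 libraries. It was the signalling gene of the 12 highest that differed most between the OMP libraries, 2.50-fold. gnrh2 was at 12.8 and 5.77 RPM in OMP against 384 and 103 RPM in TRPC2. Of 11 microvillous OSN genes in the files 6 were above 10 RPM in both OMP libraries, with 2 above and 3 below both TRPC2 libraries by RPM, and 1 above and 5 below by TMM-scaled counts. Beside these stand 51.8% above and 11.4% below for all genes by RPM, and 27.0% and 34.4% by TMM-scaled counts. The calcium-binding gene s100z was at 224 and 237 RPM against 1482 and 993 RPM. Of 4 crypt neuron genes only the G protein alpha gene gnaia was above 10 RPM in both OMP libraries, at 91.04 and 115 RPM against 18.1 and 8.68 RPM, above on both scales. ora4, the receptor of crypt neurons, was at 0.99 and 1.54 RPM.

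Of the genes over 10 RPM in both OMP libraries, those of cilia were for the most part above the TRPC2 libraries. General neuronal genes over that level were for the most part not. Of 36 genes of motile cilia in the files, 28 were above 10 RPM in both OMP libraries, 27 of the 28 were above both TRPC2 libraries by RPM, 25 by TMM-scaled counts, and 0 below on either scale. All genes over 10 RPM were above TRPC2 in 51.8% (RPM) and 27.0% (TMM) of cases, and below in 11.4% and 34.4%. enkur was at 113 and 124 RPM against 32.1 and 32.0 RPM, spag6, of the central pair of the axoneme, at 75.3 and 110 RPM against 6.42 and 9.14 RPM, and ccdc40, which sets the ruler of the axoneme, at 84.8 and 92.9 RPM against 5.18 and 5.34 RPM. For intraflagellar transport, the traffic that builds cilia, 27 of 34 genes were above 10 RPM in both libraries, 25 of them above TRPC2 by RPM and 16 by TMM-scaled counts. ift52 was at 66.8 and 72.7 RPM against 15.6 and 15.9 RPM. Of 67 general neuronal genes 49 were above 10 RPM in both OMP libraries, with 10 above both TRPC2 libraries and 17 below by RPM, and 6 above and 31 below by TMM-scaled counts. The tubulin gene tuba1a was at 748 and 785 RPM against 856 and 4490 RPM, and tubb5 at 759 and 516 RPM against 986 and 3073 RPM.

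Genes of dividing cells were read in both OMP libraries. Of 31 cell cycle genes 28 were above 10 RPM in both, with 19 above both TRPC2 libraries by RPM and 10 by TMM-scaled counts. Of all genes over 10 RPM in both, 51.8% and 27.0% were above. On either scale 0 of the 28 were below, beside 11.4% (RPM) and 34.4% (TMM) of all genes. pcna, the clamp of DNA polymerases, was at 359 and 287 RPM, and mki67, a marker of cycling cells, at 210 and 151 RPM. mki67 levels in the TRPC2 libraries were 228 and 29.5 RPM, on both sides of the OMP levels.

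Markers of other tissues were present to different degrees. Skeletal muscle genes (30 in the files, 0 above 10 RPM in both libraries) summed to 50.5 and 73.0 RPM, endothelial genes (1 of 18) to 55.8 and 48.6 RPM and white blood cell genes (5 of 20) to 133 and 186 RPM. Pigment cell genes summed to 53.5 and 87.3 RPM, against 1508 and 5037 RPM in the TRPC2 libraries, where most came from gch2, an enzyme gene of pteridine synthesis, at 1279 and 4521 RPM. pnp4a, a gene of iridophores, overlapped between the classes, at 0.37 and 15.01 RPM against 4.31 and 10.6 RPM. Skin genes were read far more, with 23 of 32 above 10 RPM in both and sums of 5693 and 8738 RPM against 1999 and 1122 RPM. krt91, a keratin, was at 480 and 1376 RPM against 2.53 and 0.69 RPM. Collagen and other connective tissue genes summed to 1959 and 2640 RPM against 163 and 205 RPM, with col1a1a at 380 and 494 RPM against 0 and 1.21 RPM. Brain and glia genes summed to 1615 and 1627 RPM against 238 and 177 RPM, most of it from fabp7a, a fatty acid binding gene of radial glia, at 852 and 866 RPM against 56.4 and 36.7 RPM. fabp7a had a log2 fold change of 3.43 (SE 0.39, adjusted p 0.0721). Eye and lens genes summed to 251 and 335 RPM against 60.7 and 337 RPM, and the lens crystallin cryba1b was at 21.1 and 40.8 RPM against 0 RPM in both TRPC2 libraries. The part of such cells in the levels of other genes was not tested.

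Most genes agreed within 2-fold between the OMP libraries. Over 8355 genes with a mean of at least 10 RPM, globins apart, the median log2 ratio of the second library over the first was -0.02 with an SD of 0.55, and 95.3% of genes were within 2-fold (Wilson 95% interval over genes 94.9% to 95.8%). Across genes, which are not independent replicates, the log2 levels had a Pearson correlation of 0.92 and a Spearman correlation of 0.89, and all points of a library share its amplification. Read counting alone did not cover the differences. By RPM, counting error was about 3% at 10 RPM, whereas only 82.99% of genes were within 1.5-fold. Against gene totals that include globins, 89.8% of the 8355 genes lay beyond the 95% range of counting error. Gene totals scale the libraries otherwise than RPM, so this share also holds that offset and does not measure the differences in RPM. Of the genes outside 2-fold, 245 were higher in the second library and 145 in the first. Agreement was lower for genes under 10 RPM, going from 55.5% within 2-fold at 0.1 to 1 RPM and 80.8% at 1 to 10 RPM to 95.2% at 10 to 100 RPM, 96.3% at 100 to 1000 RPM and 95% from 1000 RPM up. The transcription factors above 10 RPM in both were within 2-fold for 305 of 315, the surface genes for 165 of 174 and the signalling genes for 126 of 131.

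**Figure D4:**
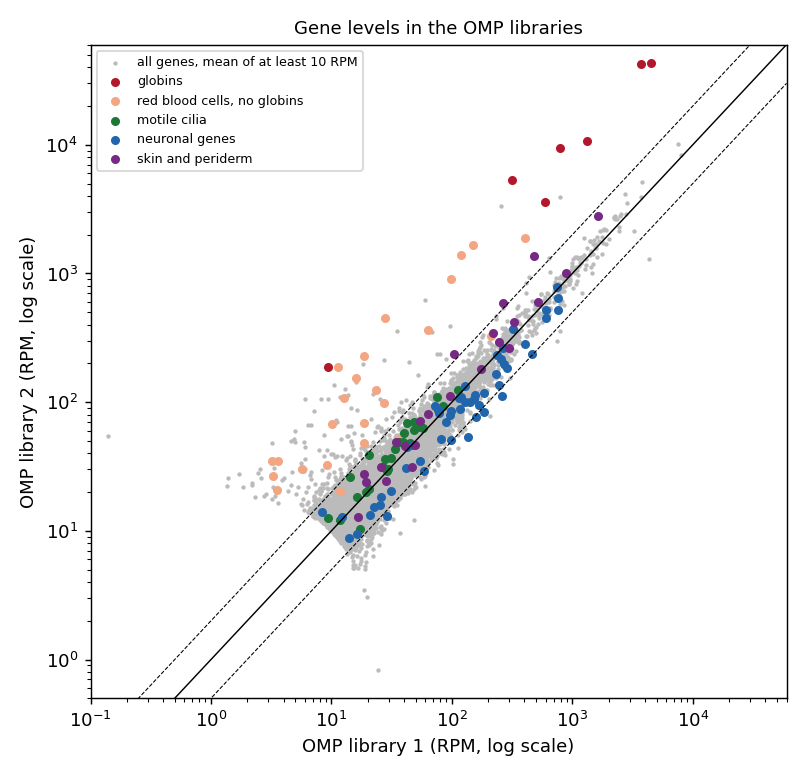
Level of each gene with a mean of at least 10 RPM in OMP library 2 (y axis) against OMP library 1 (x axis), both in RPM on log scales; the solid line marks equal levels and the dashed lines 2-fold. Globins and all but 3 of the other red blood cell genes lie above the upper 2-fold line, while most neuronal genes lie near or below the line of equal levels and motile cilia genes near or just above it.

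The differences between the OMP libraries followed gene groups. Red blood cell genes other than globins were higher in the second library for 24 of 24 genes with a mean of at least 10 RPM, with a median log2 ratio of 2.66. alas2, the first enzyme of heme synthesis in red cells, was at 120 and 1384 RPM, the carbonic anhydrase cahz at 150 and 1658 RPM, and slc4a1a, the anion exchanger of the red cell membrane, at 99.2 and 909 RPM. Without all red blood cell genes the share of genes within 2-fold was 95.6%. Neuronal genes went the other way, with 42 of 52 higher in the first library and a median log2 ratio of -0.47, as elavl4, a neuronal RNA-binding gene, at 466 and 235 RPM. Guidance receptors were higher in the first library for 23 of 25 genes (median -0.30), cadherins and protocadherins for 17 of 20 (median -0.45), homeobox factors for 54 of 72 (median -0.32) and the placode and neurogenesis factors for 29 of 35 (median -0.23). Stress response genes were also higher in the first library, for 22 of 31 (median -0.31). Motile cilia genes were higher in the second library for 28 of 29 listed genes, with a median of 0.23. Axoneme genes higher in the first library included dnah12 (34.5 and 26.7 RPM) and cfap74 (36.3 and 25.8 RPM), so this count describes the listed genes only. Skin genes were higher there for 18 of 23, with a median of 0.29. Larger medians in that direction were those of eye and lens (9 of 13, 0.85), white blood cell (5 of 5, 0.65) and connective tissue genes (9 of 11, 0.41). Cell cycle genes (15 of 29 higher in the second, median 0.01), ribosomal proteins (47 of 78, median 0.03) and transduction genes (5 of 12, median -0.06) had medians near 0. For comparison, 48.2% of all 8355 genes were higher in the second library and 51.7% in the first. Scaling by TMM or by totals without globins moved these log2 ratios by 0.03 and by -0.06, less than the medians named for neuronal, guidance, cilia and skin genes. These ratios rest on 1 library against 1 and carry no test.

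**Figure D5:**
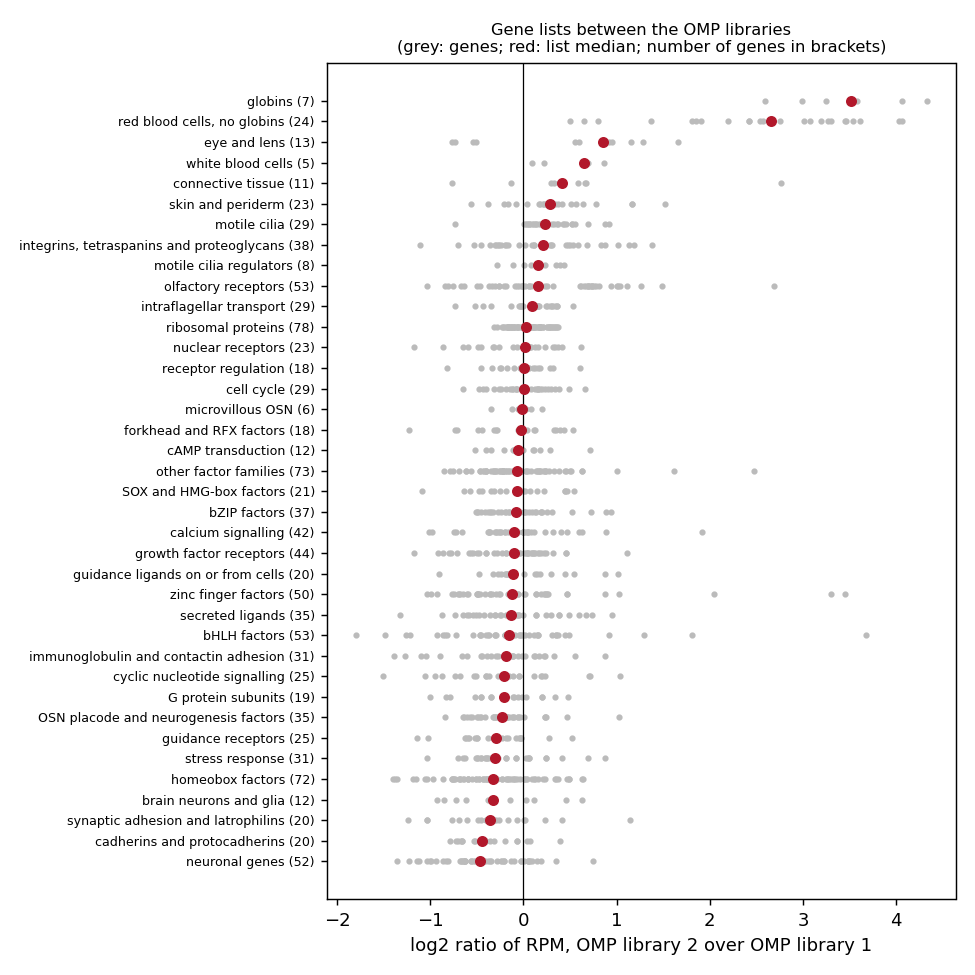
Log2 ratio of RPM in OMP library 2 over OMP library 1 (x axis) for the genes of each list with a mean of at least 10 RPM, as grey points, with the list median in red and the number of genes in brackets. Globin and other red blood cell lists have medians of 3.52 and 2.66, of the lists shown, those with at least 5 such genes, neuronal genes have the lowest median at -0.47, and most lie within 0.5 of 0.

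Among genes with a mean of at least 10 RPM, globins and receptors apart, those differing most between the OMP libraries were of unlike kinds. cyp1a, a cytochrome P450 induced through the aryl hydrocarbon receptor, was at 0.14 and 54.5 RPM, or 15 and 6069 reads, against 2.07 and 0 RPM in the TRPC2 libraries. The receptor gene ahr2 was level, at 53.9 and 54.5 RPM. Others higher in the second library were red cell genes, such as rhag, an ammonium channel of red cells, at 11.24 and 188 RPM, and nt5c2l1 at 27.7 and 453 RPM, together with gpnmb, a glycoprotein of macrophages and pigment cells, at 1.37 and 22.2 RPM. In the other direction galn, the gene of the neuropeptide galanin, was at 24.3 and 0.83 RPM, or 2621 and 93 reads. gad2, an enzyme that makes the transmitter GABA, was at 18.6 and 3.49 RPM. The related gad1b and the vesicular GABA transporter slc32a1, both with a mean under 10 RPM, had the same order. They were at 13.3 and 2.91 RPM and at 13.6 and 3.51 RPM. The PACAP receptor gene adcyap1r1a was at 19.7 and 3.07 RPM, the prolactin family gene prl2 at 19.1 and 5.07 RPM and the activity-regulated factor npas4a at 22.1 and 6.36 RPM. Each of these was above 10 RPM in the first library only. The glutamate transporter slc17a6b was at 7.24 and 9.18 RPM, under 10 RPM in both OMP libraries.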

How the data were processed

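The members and gene lists were chosen with earlier results of these data known. The authors mapped reads to GRCz10 with STAR, counted them per gene symbol with VERSE, and deposited whole-number counts and RPM, which divide the counts by a library total of which gene reads are 56.0% to 75.9%; the sources used here give no versions, annotation or strand setting. Replicates are labelled biological and the study calls the 2 libraries of a class independent, with no word on whether embryos or days were shared, so the p-values cover only the spread between libraries, which may be technical.

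Levels and ratios use the deposited RPM. Counts were compared with edgeR 4.0.16 in R 4.3.3 (glmQLFit, glmQLFTest, TMM, filterByExpr, class as the only term, Benjamini-Hochberg), with SE taken as the absolute log2 fold change over the root of F. DESeq2 1.42.0 and limma 3.58.1 on log2(RPM + 0.5) were alternatives. An exact two-sided permutation test of 2 libraries against 2 cannot go below 0.333. On simulated counts for 21026 genes, edgeR found 4% of the genes given a 4-fold change, 32% of those given 16-fold and 46% of those given 64-fold, and made 4 false calls. In the data edgeR called 0 genes, although gnrh3 had a fitted log2 fold change of 18.3 (edgeR's adjusted p 0.0721). The simulation thus called more genes than the data did, and its shares do not give the power of the test here. Members were found by symbol, in lower case as the files give most of them, and 64 symbols caught by a family's prefix but of another function were left out after the data were seen.

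Named genes are the 20 highest non-receptor genes, the 15 highest factors, and the 15 highest surface and 12 highest signalling genes. Up to 4 genes per group list and the markers were added. The 8 genes with the largest ratio each way between OMP libraries were also named, at a mean of at least 10 RPM. Further members of the factor, surface, signalling, placode, cilia and transduction lists, and cebpb, mef2b, atf5b, chl1b, bdnf, ahr2, elavl4, gad1b, slc32a1 and CNGA2_(1_of_2), were chosen after their values were seen.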

Additional observations from a re-analysis of the deposited data

How the results depend on the processing

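The count of genes called between the classes depended on the test. edgeR called 0 genes in each direction with TMM, with DESeq2's size factors, with library totals only, without red blood cell genes and without the filter. With DESeq2, 2717 genes were called higher in OMP and 1192 lower, and limma called 4945 and 165 on log2(RPM + 0.5) and 5350 and 175 on log2(RPM + 0.1). With the replicate number as a block, the replicate block called 329 and 268; the labels share only a number, and the correlation of same-numbered deviations (-0.000374, 2 pairs) gave no pairing. With 1 library left out, edgeR called 60 to 8023 genes higher and 50 to 3773 lower, with the lone library assumed to vary like the others; without the first or the second TRPC2 library edgeR called 7495 and 8023 genes higher in OMP, and without the first or second OMP library 127 and 60. DESeq2, limma and the block called ompb, gnal and foxj1b but not ompa. The causes were not tested.

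At 20 RPM in place of 10 RPM, 4807 genes and 112 surface genes were above the level in both OMP libraries, and 2351 genes, 111 factors, 70 surface genes and 43 signalling genes were above both TRPC2 libraries. With TMM-scaled counts (chosen after seeing the data) for the level too, the counts above both TRPC2 libraries were 2065 genes and 69 surface genes. The share of genes within a limit between the OMP libraries was 82.99% at 1.5-fold, 98.9% at 4-fold, 88.2% with a mean of at least 1 RPM and 96.2% with at least 100 RPM. Of the 20 highest genes, 17 and 18 stayed among the 20 highest by either OMP library alone. The balance of orders between the classes reversed with the scaling, from 51.8% above and 11.4% below by RPM to 27.0% and 34.4% by TMM-scaled counts, and hsp90ab1, atf4b, ncam1a, calm3b, kif3a, nfyc and atf5b turned from above to below. No fitted fold change of a marker changed sign. A rank per kilobase was not run, since no transcript lengths were used here.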

Other observations

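si:ch211-5k11.2, which RefSeq's gene table lists as a synonym of embryonic alpha globin genes, had levels of 255 and 3327 RPM in OMP and of 0 RPM in TRPC2. Its symbol does not begin with hba, hbb or hbz, so it was counted with the other genes. apoeb, an apolipoprotein gene, had levels of 411 and 704 RPM in OMP against 6.43 and 9.5 RPM in TRPC2 (fitted log2 fold change 5.34, SE 0.54, edgeR's adjusted p 0.0721). Both genes were chosen after their values were seen.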
